A study of Rattus norvegicus and Mus musculus with 24 samples.

Results

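The transporters that carry organic anions and organic cations through the proximal tubule cell were compared between Ctns knockout (KO) and wild-type (WT) kidneys. The set holds 9 genes, chosen by name but with earlier results of these data known: SLC22A6, SLC22A8, SLC22A2, SLC22A12, SLCO4C1, SLC47A1, ABCC2, ABCC4 and ABCG2. A row with the gene's symbol was used for 8 of them among the 17376 symbols of the mouse table and for 7 among the 14931 symbols of the rat table. SLC47A1, the MATE1 cation exporter, was not analysed here in either species, and SLC22A12 was not analysed here in the rat.

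The proximal tubule clears drugs, toxins and metabolic waste from the blood by passing them through its cells. OAT1 and OAT3 (SLC22A6 and SLC22A8) take up organic anions from the blood side in exchange for dicarboxylates, OCT2 (SLC22A2) takes up organic cations there, and OATP4C1 (SLCO4C1) is an uptake carrier of the same membrane. On the urinary side, MRP2, MRP4 and BCRP (ABCC2, ABCC4 and ABCG2) are ATP-driven efflux pumps, MATE1 releases cations, and URAT1 (SLC22A12) takes urate back. In rodents several of these genes are known to be expressed at different levels in males and females, and their transcripts are widely used as signs of a differentiated proximal tubule.

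RNA was sequenced from the kidneys of 4 Ctns KO and 4 Ctns WT mice on a C57BL/6 background and of 8 Ctns KO and 8 Ctns WT Sprague-Dawley rats, with 1 library per animal. The WT animals were littermates, and no agent was named for any library. The labels name kidney cortex as tissue and proximal tubule cells as cell type, and their protocol speaks of microdissected tubules, whereas the methods name RNA of kidney cortex. The labels give no age and no sex for any animal, and the study's sequencing methods give none for the sequenced ones. The rats carry the numbers 17 to 24 and 25 to 32, with 4 KO and 4 WT rats in each, and these are called the earlier and the later range. What separates the ranges is not stated, so every rat result is also given within each range.

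Reads on genes were 19309371 to 44449843 per mouse and 24684097 to 40629873 per rat. CTNS, the deleted lysosomal cystine exporter, stood at a scaled value of 0.319 to 0.342 in KO and 0.824 to 1.03 in WT mice. In the rats CTNS was 16.8 to 22.2 CPM (counts scaled to a common library size) in KO and 19.2 to 27.8 CPM in WT libraries (log2 fold change -0.22, adjusted p = 0.0511 from edgeR with Benjamini-Hochberg adjustment), so its level did not check the rat labels. KO mouse 3 stood apart, with XIST at 0.0517 against 19.3 to 22.5 in the other 7 mice. The study's reporting form states female mice for all experiments, and its methods state this for primary cell cultures and mechanistic studies. Markers of the proximal tubule were high in all libraries, with a summed level of 327 to 496 in mice and 9837 to 20329 CPM in rats. Markers of other kidney cells were present too: the distal nephron markers summed to 176 to 233 in mice and 2894 to 4872 CPM in rats, those of endothelium and podocytes to 20.8 to 24.8 and 638 to 1171 CPM.

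The level of each carrier could be set against the others only in the mouse, where gene lengths of the same build were at hand. Per kilobase of merged exons, the scaled values of the WT mice were highest for SLC22A12 (9.43 ± 3.25, SD, n = 4), followed by SLC22A8 (5.57 ± 1.43), SLC22A6 (3.70 ± 1.244), SLC22A2 (1.80 ± 0.265), ABCC2 (1.44 ± 0.18), ABCC4 (0.889 ± 0.263) and ABCG2 (0.509 ± 0.022). SLCO4C1 was far below them at 0.0239 ± 0.00798 per kilobase. The 3 highest genes overlapped their neighbours in this order over the 4 mice, and so did SLC22A2 and ABCC2. No other neighbours overlapped. The KO mice gave the same order.

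SLC22A6 and SLC22A8, the blood-side organic anion carriers, fell in Ctns KO rats, and the fall was carried by rats 25 to 32. SLC22A6 was 739, 859 and 1053 CPM (lowest, median and highest of 8) in KO rats and 707, 1439 and 2250 CPM in WT rats. The groups overlapped because the WT rats themselves were spread over a wide range. The fold change was -0.75 on the log2 scale (SE 0.22, adjusted p = 0.0169), where adjusted p-values come from edgeR's quasi-likelihood test over all 11584 rat genes tested. Within the later range, SLC22A6 was 1929, 1730, 2250 and 2142 CPM in WT rats 25, 27, 29 and 31 and 1053, 875, 768 and 1018 CPM in KO rats 26, 28, 30 and 32. No KO rat reached the lowest WT rat, and the mean fell by 53.9% (log2 fold change -1.12, SE 0.12, adjusted p = 4.5e-05). Within the earlier range it was 707, 824, 1147 and 959 CPM in WT rats 17, 19, 21 and 23 and 886, 782, 844 and 739 CPM in KO rats 18, 20, 22 and 24. Here the groups overlapped (log2 fold change -0.15, SE 0.13, adjusted p = 0.59). The 2 ranges differed in this change by -0.95 (SE 0.19, adjusted p = 0.0038 for the genotype by range term).

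The level of SLC22A6 that set the ranges apart was that of the WT rats. It was 909 ± 189 CPM (SD, n = 4) in WT rats 17 to 24 and 2013 ± 231 CPM in WT rats 25 to 32, a difference of 1.15 on the log2 scale (SE 0.13, adjusted p = 1.23e-05). In KO rats it was 813 ± 65 and 929 ± 132 CPM, a difference of 0.19 (SE 0.13, adjusted p = 0.238). The KO rats of both ranges thus lay within the range of WT rats 17 to 24. This comparison of the ranges within a genotype was added after the data were seen, and what it reflects cannot be told apart from whatever else differs between the ranges.

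SLC22A8 was lower in KO rats as well. It was 822, 1125 and 1217 CPM (lowest, median and highest) in the 8 KO rats and 1192, 1560 and 2260 CPM in the 8 WT rats, and only KO rat 18 lay above the lowest WT rat. The log2 fold change was -0.58 (SE 0.12, adjusted p = 0.00197 from edgeR). For rats 25 to 32 the WT values were 1647, 1758, 2260 and 1945 CPM and the KO values 1171, 967, 822 and 1105 CPM. These groups did not overlap, and the mean fell by 46.6% (log2 fold change -0.90, SE 0.13, adjusted p = 0.000284). For rats 17 to 24 SLC22A8 was 1192, 1359, 1355 and 1473 CPM in WT and 1217, 1145, 1157 and 1101 CPM in KO rats (log2 fold change -0.21, SE 0.07, adjusted p = 0.0915). This last change passed the test with DESeq2 (adjusted p = 0.0225) and without WT rat 17 (adjusted p = 0.0215). The change differed between the ranges by -0.69 (SE 0.15, adjusted p = 0.00798).

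Slc22a8 and Slc22a6 are neighbours in both species, with no gene between them in the RefSeq rat annotation. In the mouse (mm10) Slc22a8 spans chr19:8591254-8611835 and Slc22a6 chr19:8618039-8628299, 6203 bases apart on the same strand. The ratio of SLC22A6 to SLC22A8 reads was 0.984 to 1.17 in WT rats 25 to 32, 0.899 to 0.935 in KO rats 25 to 32, 0.671 to 0.729 in KO rats 17 to 24 and 0.593 to 0.847 in WT rats 17 to 24. In rats 25 to 32 the ratio was lower in every KO rat than in any WT rat, which was not tested.

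RefSeq promoters of the rat (build GRCr8) were matched for 7 of the 9 genes, SLC22A6 and SLC47A1 not among them. HNF4A, a nuclear factor known to drive many proximal tubule genes, was itself lower in KO rats (values given with the related genes), so the 250 bases before each start were searched for AGGTCA, the half-site that HNF4A shares with other nuclear receptors, on both strands (TGACCT on the other). It was found in 1 of the 7 promoters, Abcc2, and in 14.1% of all 33469 rat promoters of that length. In Abcc2 there were 2 matches, 155 to 150 bases before the start on the forward strand and 115 to 110 bases before it on the reverse strand. A match of letters is a description and not a bound site. A share of 1 in 7 is near that of all promoters, and whether a match goes with a gene's change was not tested. The promoters of Abcc2 and Slc22a8 are shown with the matches in capitals. They were picked as 2 genes that changed in opposite directions in KO rats 25 to 32. The promoter of Slc22a8, which held no match, lies at chr1:214927034-214927283 and that of Abcc2 at chr1:252613625-252613874, both on the plus strand.
Slc22a8: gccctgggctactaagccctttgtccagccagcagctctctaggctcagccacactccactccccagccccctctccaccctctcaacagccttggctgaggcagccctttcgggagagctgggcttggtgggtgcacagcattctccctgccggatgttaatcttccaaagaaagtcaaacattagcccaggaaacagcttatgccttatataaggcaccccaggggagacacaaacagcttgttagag
Abcc2: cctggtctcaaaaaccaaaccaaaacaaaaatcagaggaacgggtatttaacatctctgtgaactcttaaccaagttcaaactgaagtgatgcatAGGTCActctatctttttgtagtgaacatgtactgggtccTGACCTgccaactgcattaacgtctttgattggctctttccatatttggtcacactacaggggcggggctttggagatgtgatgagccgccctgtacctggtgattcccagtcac

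**Figure D1:**
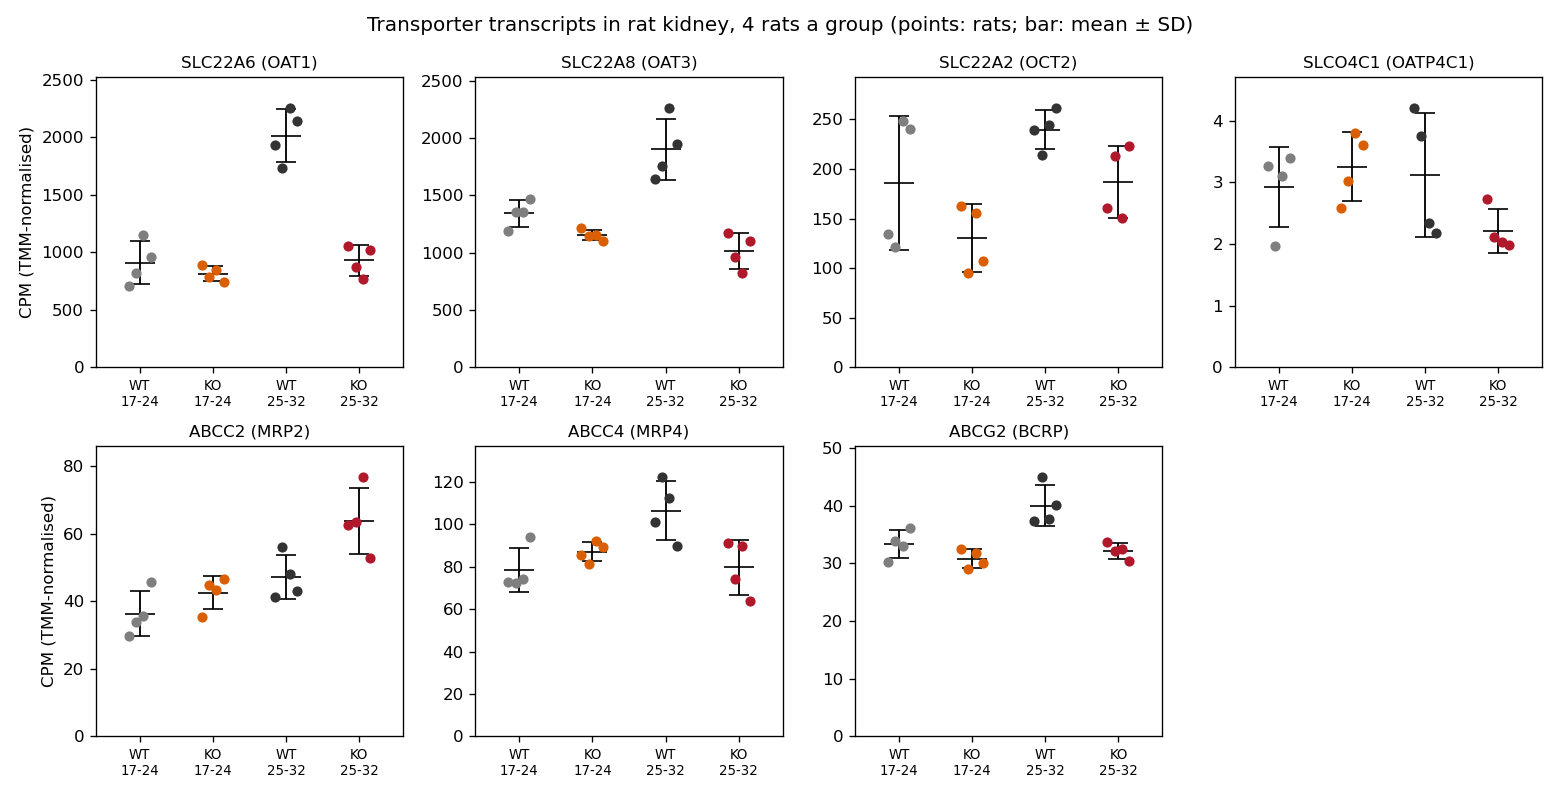
CPM (vertical axis, from 0) of 7 transporters in each rat, by genotype and number range, with 4 rats a group, points for rats and a bar for mean ± SD. SLC22A6 and SLC22A8 of WT rats 25 to 32 lie above all other groups, at 1730 to 2250 and 1647 to 2260 CPM.

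SLC22A2, the organic cation carrier OCT2, was 95.6, 158 and 224 CPM (lowest, median and highest) in KO rats and 122, 240 and 261 CPM in WT rats. The difference of -0.42 on the log2 scale (SE 0.19) did not pass the test over all rats (adjusted p = 0.103), and it passed with the number range as a covariate (-0.44, adjusted p = 0.0359) or without WT rat 19 (adjusted p = 0.0383). WT rats 17 and 19, at 134 and 122 CPM, lay far under the other 6 WT rats, which were at 214 to 261 CPM. Among rats 25 to 32 SLC22A2 was 240, 214, 244 and 261 CPM in WT and 161, 213, 151 and 224 CPM in KO rats, with a log2 fold change of -0.36 (SE 0.12, adjusted p = 0.0358). KO rat 32 lay above the lowest WT rat and KO rat 28 just under it, and this call was lost without any one of rats 25, 26, 29, 30 and 31 (adjusted p up to 0.0969). In rats 17 to 24 it was 134, 122, 249 and 241 CPM in WT and 163, 95.6, 156 and 107 CPM in KO rats (log2 fold change -0.51, SE 0.32, adjusted p = 0.446).

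SLCO4C1, the OATP4C1 uptake carrier, was scarce, with 49 to 145 reads per rat. It was 1.98, 2.66 and 3.80 CPM (lowest, median and highest) in KO and 1.98, 3.18 and 4.20 CPM in WT rats, a difference of -0.15 on the log2 scale (SE 0.18, adjusted p = 0.585). In the later range it was 4.20, 3.75, 2.34 and 2.19 CPM in WT and 2.74, 2.11, 2.03 and 1.98 CPM in KO rats (log2 fold change -0.50, SE 0.24, adjusted p = 0.115). Among rats 17 to 24 the KO mean of 3.25 ± 0.557 CPM lay above the WT mean of 2.93 ± 0.649 CPM (SD, n = 4 each), with overlapping values (adjusted p = 0.714). No difference in SLCO4C1 was detectable at this depth and number of rats, and without WT rat 31 the fall in rats 25 to 32 passed the test (-0.63, adjusted p = 0.047).

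The efflux pumps of the urinary side did not move as 1 group in the rat. ABCG2, the BCRP pump, was 29.01, 31.99 and 33.8 CPM (lowest, median and highest) in KO rats and 30.3, 36.8 and 45.0 CPM in WT rats. This small fall, -0.22 on the log2 scale (SE 0.07), passed the test (adjusted p = 0.0243). It was lost without any one of WT rats 25, 29 and 31 or KO rat 32 (adjusted p 0.0554 to 0.0634). With the number range as a covariate it was kept (-0.21, adjusted p = 0.00587). Across rats 25 to 32 ABCG2 was 37.3, 45.0, 37.8 and 40.2 CPM in WT and 33.8, 32.2, 32.5 and 30.4 CPM in KO rats, without overlap (log2 fold change -0.31, SE 0.08, adjusted p = 0.0081). In the earlier range the groups overlapped, at 30.3 to 36.2 CPM in WT and 29.01 to 32.5 CPM in KO rats (log2 fold change -0.10, SE 0.07, adjusted p = 0.431). None of the 16 ABCG2 values was a whole number of reads, so reads of more than 1 gene or shared reads may stand under this symbol.

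ABCC2, the MRP2 pump, went the other way. It was 35.5, 49.8 and 76.7 CPM (lowest, median and highest) in KO and 29.8, 42.2 and 56.1 CPM in WT rats, a difference of 0.35 on the log2 scale (SE 0.15) that did not pass the test (adjusted p = 0.0932) and passed with the number range as a covariate (0.33, adjusted p = 0.0122) or without KO rat 18 (adjusted p = 0.0296). In the later range it was 41.3, 56.1, 48.2 and 43.2 CPM in WT and 62.5, 63.4, 76.7 and 52.9 CPM in KO rats. Of these KO rats only rat 32 lay under the highest WT rat, and the rise of 0.44 (SE 0.13) passed the test (adjusted p = 0.0172), though not without WT rat 25 (adjusted p = 0.0536). Across rats 17 to 24 ABCC2 was 29.8, 34.0, 35.8 and 45.6 CPM in WT and 35.5, 45.0, 43.3 and 46.7 CPM in KO rats (log2 fold change 0.24, SE 0.13, adjusted p = 0.344).

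ABCC4, the MRP4 pump, was 63.9, 87.6 and 92.1 CPM (lowest, median and highest) in KO and 72.4, 91.9 and 122 CPM in WT rats, and the difference did not pass the test (log2 fold change -0.15, SE 0.11, adjusted p = 0.356). The ranges pointed in opposite directions. Among rats 25 to 32 ABCC4 was 101, 122, 112 and 90.0 CPM in WT and 91.0, 74.0, 89.9 and 63.9 CPM in KO rats (log2 fold change -0.42, SE 0.13, adjusted p = 0.024). In the earlier range it was 72.8, 72.4, 74.0 and 93.8 CPM in WT and 85.7, 81.4, 92.1 and 89.4 CPM in KO rats (log2 fold change 0.16, SE 0.08, adjusted p = 0.3). The difference between the ranges was -0.57 (SE 0.16, adjusted p = 0.0273). Without any one of 8 of the 16 rats this difference no longer passed the test (adjusted p up to 0.0633), and the fall in rats 25 to 32 was lost without any one of rats 27, 28, 29 and 32.

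Counted together, 3 of the 7 transporters tested in all rats were lower in KO rats (SLC22A6, SLC22A8 and ABCG2) and none higher, where 12.3% of all genes tested were lower and 15.2% higher. Within the later range, 5 of 7 were lower and ABCC2 was higher, beside 22.1% of all genes lower and 21.8% higher. The share of all genes whose KO and WT rats do not overlap there was not computed. Within the earlier range none of the 7 passed the test, beside 7.26% of all genes in either direction. SLC22A8 had an unadjusted p under 0.05 there (0.00981) and passed with DESeq2. The median log2 fold change of the 7 was -0.22 in all rats, -0.10 in rats 17 to 24 and -0.42 in rats 25 to 32, with medians over all genes tested of -0.02, -0.002 and -0.01. The genotype by range term was negative and passed the test for 3 of the 7 (SLC22A6, SLC22A8 and ABCC4), as for 7.73% of all genes. Between the ranges, SLC22A6, SLC22A8, ABCC4 and ABCG2 were higher in WT rats 25 to 32 than in WT rats 17 to 24, 4 of 7 beside 11.9% of all genes. In KO rats ABCC2 alone of the 7 was higher in the later range (0.59, adjusted p = 0.0026), beside 24.6% of all genes.

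**Figure D2:**
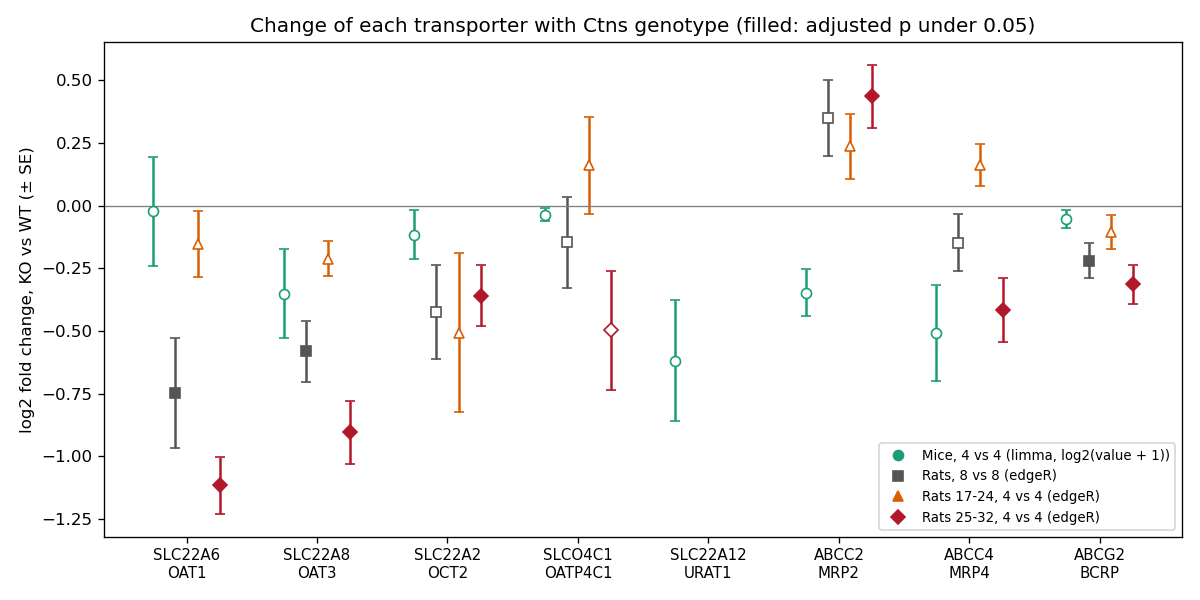
Log2 fold change, KO against WT, with its standard error (vertical axis) for 8 transporters in mice, all rats, rats 17 to 24 and rats 25 to 32, with filled symbols where the adjusted p is under 0.05. In the later range SLC22A6 is at -1.12 and SLC22A8 at -0.90 while ABCC2 is at 0.44, and no mouse symbol is filled. Mouse changes are from limma on log2(value + 1), which understates the change of low values, and rat changes from edgeR. With edgeR on the recovered mouse reads, not shown, SLCO4C1 was at -0.42 (adjusted p = 0.334) and ABCC2 passed (adjusted p = 0.0216).

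Markers of the cell type and of injury moved with genotype in the rats, and their part in these results was not tested. The summed proximal tubule markers were 9837 to 11603 CPM in KO and 18315 to 20329 CPM in WT rats 25 to 32, with 8 of the 9 tested lower, and 12196 to 13103 CPM in KO and 13733 to 16146 CPM in WT rats 17 to 24, with 2 of 9 lower. In these bulk samples fewer proximal tubule cells and less RNA of a gene per cell cannot be told apart. Tubular injury markers summed to 4311 to 6335 CPM in KO against 628 to 718 CPM in WT rats 25 to 32 (8 of 8 higher) and to 1403 to 2035 CPM against 670 to 792 CPM in rats 17 to 24 (5 of 8 higher). The largest part of this sum in KO rats was SPP1, at 844 to 4947 CPM over all KO and 172 to 331 CPM over all WT rats. Macrophage markers summed to 362 to 531 against 172 to 218 CPM in rats 25 to 32 (9 of 10 higher) and to 190 to 214 against 116 to 158 CPM in rats 17 to 24 (8 of 10 higher). Of 4 distal nephron markers tested, 3 were higher in rats 25 to 32 and none passed in rats 17 to 24. Of 7 endothelium and podocyte markers, 3 were lower in rats 25 to 32 and 1 in rats 17 to 24. Over all genes tested, 22.1% were lower and 21.8% higher in rats 25 to 32. The shares in rats 17 to 24 were 2.19% and 5.07%.

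Set against the summed proximal tubule markers of the same rat, a scale chosen after the data were seen, the transporters of rats 25 to 32 ranked otherwise. This sum was itself lower in KO rats of both ranges, so a gene with unchanged CPM becomes higher in KO rats on this scale. Its largest parts were SLC34A1 (median 6221 CPM in WT and 3905 CPM in KO rats), MIOX (3908 and 2569 CPM) and GATM (2709 and 2250 CPM). SLC5A2, a smaller part, was 650 and 627 CPM. Per 1000 CPM of these markers, SLC22A6 remained lower, at 84.9 ± 5.79 CPM in KO and 105 ± 11.1 CPM in WT rats (SD, n = 4 each), without overlap. SLC22A8 was 92.8 ± 7.46 and 99.3 ± 13.3 CPM, with overlap. ABCC2 was 5.93 ± 1.36 in KO and 2.47 ± 0.369 in WT rats, SLC22A2 17.2 ± 3.02 and 12.5 ± 0.843, and ABCG2 2.97 ± 0.275 and 2.09 ± 0.186, each higher in all KO rats than in any WT rat. ABCC4 (7.37 ± 1.51 and 5.58 ± 0.852) and SLCO4C1 (0.203 ± 0.0262 and 0.164 ± 0.0585) also had the higher mean in KO rats on this scale, with overlap. Of the 5 transporters called lower in CPM in rats 25 to 32, the means of SLC22A2, ABCG2 and ABCC4 thus turned direction. In rats 17 to 24 SLC22A6 turned too, at 63.9 ± 6.56 in KO and 59.9 ± 12.9 in WT rats, and so did SLC22A8 (90.7 ± 6.31 and 88.9 ± 13.8) and ABCG2 (2.42 ± 0.176 and 2.201 ± 0.321), all with overlap. There ABCC2 (3.34 ± 0.312 and 2.41 ± 0.63), ABCC4 (6.84 ± 0.318 and 5.19 ± 1.099) and SLCO4C1 (0.254 ± 0.0367 and 0.193 ± 0.0481) were higher in the mean of KO rats, as in CPM, and SLC22A2 lower (10.3 ± 2.82 and 12.3 ± 4.83), with overlap for each. No test was run on this scale, and the share of all genes that turn direction or separate on it was not computed.

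In the mouse none of the 8 transporters passed the test, beside 4.32% of all 17376 symbols, with limma on log2(value + 1), a scale that understates the change of low values. Unadjusted p-values under 0.05 were found for SLC22A12, ABCC2 and ABCC4. ABCC2 was 9.27, 8.93, 8.77 and 10.6 scaled units in KO mice 3, 5, 6 and 8 and 12.0, 11.3, 14.5 and 11.2 in WT mice 1, 2, 4 and 7, where 1 unit is the library's 75th percentile. All KO mice lay under all WT mice (log2 fold change -0.35, SE 0.09, adjusted p = 0.0909). With edgeR on the recovered reads this fall passed the test (-0.40, SE 0.10, adjusted p = 0.0216), as the only one of the 8, where 2.85% of all genes tested were lower. It also passed with DESeq2 (adjusted p = 0.00128), and so did that of SLC22A8 (adjusted p = 0.0343). The share of all symbols whose KO and WT mice do not overlap was not computed.

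SLC22A12, the urate carrier URAT1, was 10.7, 13.1, 12.9 and 15.6 in KO and 29.4, 15.1, 25.8 and 15.1 in WT mice. The difference of -0.62 on the log2 scale (SE 0.24) did not pass the test (adjusted p = 0.231), and 2 WT mice lay within the KO range. ABCC4 was 3.48, 3.48, 2.998 and 4.52 in KO and 7.47, 4.72, 6.67 and 3.85 in WT mice (-0.51, SE 0.19, adjusted p = 0.22). SLC22A8 was 16.5, 15.98, 15.2 and 18.3 in KO and 27.9, 24.8, 19.3 and 15.3 in WT mice (-0.35, SE 0.18, adjusted p = 0.366). Among the WT mice, mice 1 and 4 were highest and mouse 7 lowest for SLC22A6 and ABCC4.

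SLC22A6 was 12.0, 14.2, 15.4 and 14.4 in KO and 21.2, 12.0, 15.9 and 9.85 in WT mice, so that the KO mice lay inside the WT range (-0.02, SE 0.22, adjusted p = 0.964). SLC22A2 was 3.51, 3.998, 4.45 and 4.17 in KO and 5.19, 4.48, 4.61 and 3.59 in WT mice (-0.11, SE 0.10, adjusted p = 0.649). ABCG2 was 3.77, 3.92, 4.22 and 3.95 in KO and 4.14, 4.10, 3.97 and 4.40 in WT mice (-0.05, SE 0.04, adjusted p = 0.549), with 5 of its 8 values not whole reads. SLCO4C1 stood at 0.0778 to 0.121 in KO and 0.0848 to 0.173 in WT mice, from 75 to 360 reads (-0.04, SE 0.03, adjusted p = 0.561). Without KO mouse 3 none of the 8 passed either, SLC22A12 was at -0.53, ABCC4 at -0.50 and ABCC2 at -0.34, and SLC22A6 changed sign to 0.05 (adjusted p = 0.94). Mouse markers of injury (4 of 8) and macrophages (6 of 10) were higher in KO mice, beside 3.5% of all symbols. None of 11 proximal tubule, 8 distal nephron or 8 endothelium and podocyte markers passed. The summed macrophage markers were 4.70 to 5.79 in KO and 3.15 to 3.32 in WT mice, and those of injury 80.6 to 105 and 40.3 to 60.2. Most of the injury sum was SPP1, at 60.6 to 79.8 in KO and 26.6 to 40.7 in WT mice. HAVCR1 went the other way, with medians of 0.337 in KO and 0.423 in WT mice.

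**Figure D3:**
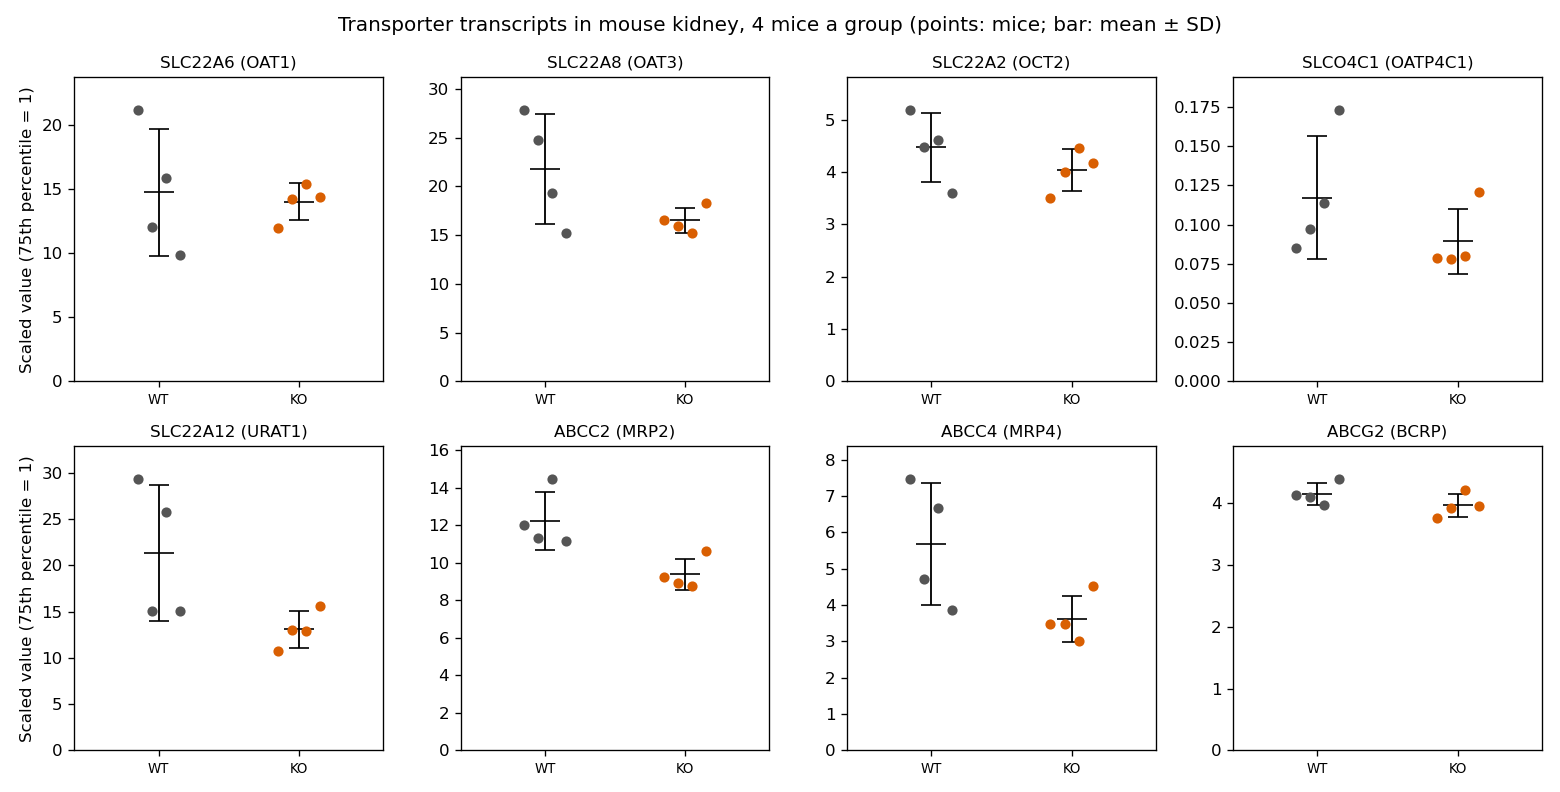
Scaled value (vertical axis, from 0, 75th percentile of the library = 1) of 8 transporters in each of 4 WT and 4 KO mice, with points for mice and a bar for mean ± SD. ABCC2 is the gene whose KO mice (8.77 to 10.6) lie under all WT mice (11.2 to 14.5), and the WT mice spread more widely than the KO mice for SLC22A6, SLC22A8 and SLC22A12. The share of all symbols without overlap was not computed.

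The change with genotype was compared between species for the 7 genes with a row in both, over 11216 shared symbols. The limma test used for this made too many false calls on simulated data. ABCC2 was the only one that passed, with a rat minus mouse difference of 0.54 (SE 0.13, adjusted p = 0.0235 from limma), beside 1.80% of all symbols with a higher change in the rat. Its value was -0.35 in mice and 0.35 in all rats by the separate tests, neither of which passed (adjusted p = 0.0909 from limma and 0.0932 from edgeR). The difference did not pass with a pseudocount of 0.1 (adjusted p = 0.0769), with edgeR on the reads of both species (0.78, SE 0.23, adjusted p = 0.0725), or without any one of KO mice 5 and 6 and WT mouse 4 (adjusted p 0.0568 to 0.0649). For SLC22A6 the difference by limma was -0.55 (SE 0.35, adjusted p = 0.41). It was -0.09 (adjusted p = 0.928) against rats 17 to 24 alone and -1.01 (adjusted p = 0.00535) against rats 25 to 32 alone, also by limma. With edgeR on the reads of both species it was -0.62 (adjusted p = 0.385), and edgeR was not run here with 1 range alone. The mice and rats were different strains sequenced and scaled apart, and the species difference cannot be told apart from that.

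Of 52 related genes counted as lists, 42 were tested in the mouse and 35 in the rat. In the mouse 1 was lower and none higher, where 0.817% of all symbols were lower. It was SLC22A3, the cation carrier OCT3, at 0.0199 to 0.0301 in KO and 0.0444 to 0.0715 in WT mice (-0.05, SE 0.01, adjusted p = 0.0431). On log2(value + 1) the change of such low values is understated: the KO mean was 0.437 of the WT mean. The call was lost without any one of KO mice 3, 5, 6 and 8 and WT mice 1, 4 and 7 (adjusted p 0.0567 to 0.117). It was kept with pseudocount 0.1, after dropping values under 0.01, and with edgeR or DESeq2 on the recovered reads. Over these settings the log2 fold change was -1.23 to -0.05 (adjusted p 4.13e-05 to 0.0305). In the rat 15 were lower and 2 higher, beside 12.3% of all genes lower and 15.2% higher, with a median log2 fold change of -0.30 against -0.02 over all genes.

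All 5 genes listed for the supply and exchange of dicarboxylates, on which uptake by OAT1 and OAT3 depends, were lower in KO rats. SLC13A2 and SLC13A3, the sodium-dicarboxylate carriers of the urinary and the blood side, changed by -0.65 (SE 0.10, adjusted p = 0.000231) and -0.58 (SE 0.13, adjusted p = 0.00315). The mitochondrial carriers SLC25A10 and SLC25A11 changed by -0.45 and -0.24, and the sulfate and oxalate exchanger SLC26A1 by -0.30 (adjusted p = 0.0442). SLC26A1 lost its call with limma-voom (adjusted p = 0.0593), in rats 17 to 24 alone (adjusted p = 0.363), and without any one of KO rats 18, 20, 22, 24, 28, 30 and 32 and WT rats 25, 27, 29 and 31 (adjusted p 0.051 to 0.114). It kept the call with the number range as a covariate (-0.28, adjusted p = 0.00422). In rats 25 to 32, SLC13A3 was 1230 to 1479 CPM in KO and 2311 to 2692 CPM in WT rats, and in rats 17 to 24 it was 1212 to 1402 and 1483 to 1657 CPM. As for SLC22A6, the WT rats 25 to 32 stood above all other groups.

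Among organic cation and carnitine carriers 3 of 6 were lower in KO rats: the carnitine carrier SLC22A5 (-0.57), SLC22A18 (-0.34) and SLC22A23 (-0.71). Among the other organic anion carriers, SLC22A9 was lower (-0.61, SE 0.15, adjusted p = 0.00575) and SLC22A7 and SLC22A10 did not pass. Of the ABC pumps, ABCC6 (-0.34) and ABCC10 (-0.58) were lower, 2 of 7. ABCB1 and ABCB4 had identical rat values and are 1 measurement, but both are in these 7 and in the 35 related genes. Of 6 genes handling urate or scaffolding these carriers, SLC17A2 (-0.50) and PDZK1 (-0.48), a scaffold protein of the urinary membrane, were lower. The only related genes that rose were the SLCO carriers SLCO2B1 (0.54, SE 0.11, adjusted p = 0.00158) and SLCO3A1 (0.57, SE 0.10, adjusted p = 0.000757), 2 of 4. Of 4 nuclear factors tested, 2 were lower: HNF4A (-0.69, SE 0.13, adjusted p = 0.00116) and the xenobiotic receptor NR1I2 (-0.41, SE 0.08, adjusted p = 0.00141).

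The ranges differed for the related genes as well. In rats 25 to 32, 22 of 35 were lower and 3 higher, beside 22.1% of all genes lower and 21.8% higher. In rats 17 to 24, 3 of 34 were lower (PDZK1, SLC13A2 and SLC25A10) and SLCO3A1 was higher, where 2.19% of all genes were lower and 5.07% higher. The genotype by range term was negative and passed the test for 9 of the 35 and positive for none, beside 7.73% of all genes negative and 7.42% positive. HNF4A was 133 to 207 CPM in KO and 322 to 426 CPM in WT rats 25 to 32, and 220 to 252 and 250 to 343 CPM in rats 17 to 24.

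**Figure D4:**
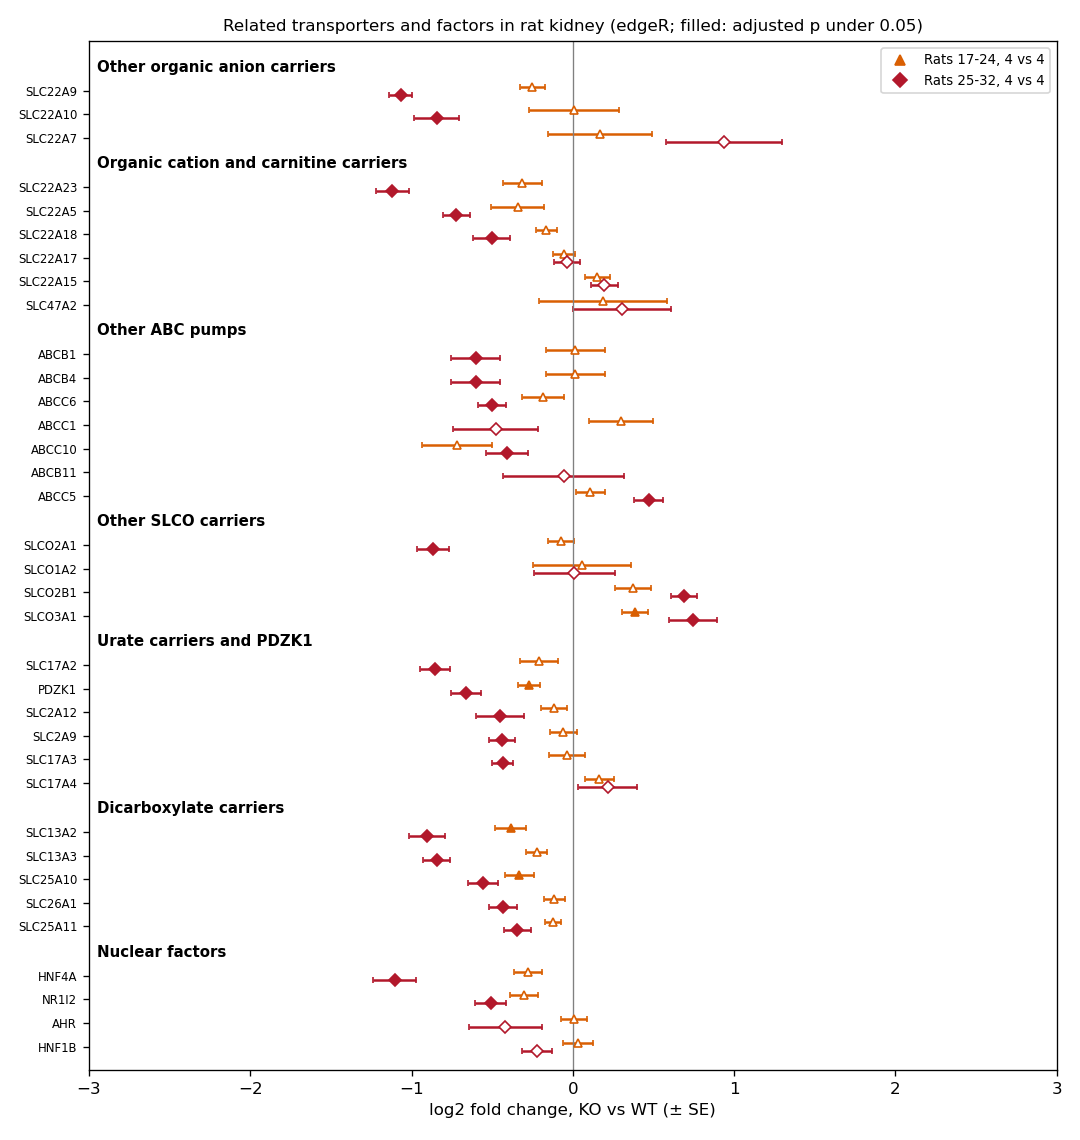
Log2 fold change, KO against WT, with its standard error (horizontal axis) of the related transporters and nuclear factors tested in rats, grouped by role, for rats 17 to 24 (triangles) and rats 25 to 32 (diamonds), filled where the adjusted p is under 0.05. In rats 25 to 32, 22 of 35 genes are filled on the lower side and 3 on the higher side, against 3 and 1 of 34 in rats 17 to 24.

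Some related carriers differed far more between the ranges than between genotypes, a comparison made after the data were seen. SLC22A10 was 1.14 to 2.61 CPM in the 8 rats of 17 to 24 and 36.0 to 104 CPM in the 8 rats of 25 to 32. SLC22A7, the carrier OAT2, was 5.72 to 17.4 CPM in rats 17 to 24 and 0.543 to 2.38 CPM in rats 25 to 32. ABCB1, a drug efflux pump, was 4.47 to 7.87 CPM in rats 17 to 24 and 14.8 to 29.3 CPM in rats 25 to 32. The symbol ABCB4 held the same rat values. The ranges did not overlap for any of these, in either genotype.

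The genes most like a member over the 16 rats were those with the smallest root mean square difference of log2 CPM after centring each gene on its mean. For SLC22A6 they were GBA3 (0.199), PNPLA3 (0.200) and POLD4 (0.210), beside a spread of 1.67 log2 units of SLC22A6 itself. For SLC22A8, with a spread of 1.46, KIAA1191 (0.101) and the drug-metabolising enzyme FMO1 (0.104) came first. For SLCO4C1, with a spread of 0.93, they were HOMER1 (0.198), TIAM2 (0.200) and DIS3 (0.200). All points share their libraries, and this is a description.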

How the data were processed

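Libraries were stranded mRNA libraries read as paired ends, and the submitters' processing notes name bcl2fastq 2.20, STAR 2.7.3, DESeq2 1.24.0 and R 3.6.1 with the builds mm10 and rn5; the counting step and the annotation are not given in the sources used here. The transporters and gene lists were chosen with earlier results of these data known. Groups came from the genotype labels and the ranges from the animal numbers.

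The mouse values deposited by the authors are a scaled signal. Judged by the values themselves, 0.5 was added to the reads and to the 75th percentile of each library before the one was divided by the other, and 99% of values gave whole reads within 0.01. The rat values deposited by the authors are estimated counts, each raised by 1/6, and 97.7% of them were whole; this offset was subtracted before rounding. Human-style symbols may merge rodent genes, and 317 mouse and 556 rat symbols held values off whole reads.

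All tests ran in R 4.3.3. The mouse test was limma 3.58.1 (trend, robust) on log2(value + 1) without a filter, and the rat test edgeR 4.0.16 (quasi-likelihood, robust, TMM, its filter on low counts). The genotype by range term and the difference between ranges within a genotype came from 1 edgeR model of all 16 rats, and the species difference from limma on values of both species, with rat reads scaled as the mouse values. P-values are two-sided, with Benjamini-Hochberg adjustment, and 0.05 was the threshold. Rat values are TMM-normalised CPM. The scripts were tested on simulated data. The species test made too many false calls there, so edgeR on the reads is given beside it.

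Named were the 9 transporters, CTNS, the related genes that passed the test in the mouse or in all rats, and the 3 genes most like SLC22A6, SLC22A8 and SLCO4C1. Some genes that this rule covers are not reported here and are left out of the lists and their counts. SLC22A7, SLC22A10 and ABCB1 were named after their values were seen, and the comparison of ranges within a genotype and the promoter motif were chosen then too. Mouse positions and merged exon lengths are from GENCODE vM21. Rat promoters and the order of Slc22a8 and Slc22a6 are from RefSeq GRCr8. Rat gene lengths of that build were not used, as the rat files rest on rn5. Alternatives were pseudocount 0.1, filters, edgeR or DESeq2 1.42.0 on the reads, DESeq2's size factors, limma-voom, the number range as a covariate or each range alone, and leaving out each animal. Depth per library is given in the report and covers counting error only. Libraries of a group always differed by more than sampling noise: chi-square over its degrees of freedom was at least 11.2 among 12 pairs of mice and 7.96 among 56 pairs of rats.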

Additional observations from a re-analysis of the deposited data

Results flagged for a closer look

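In 58 groups of 4 or 8 animals, each transporter was searched for an animal far from the rest by Dixon's test, which chance alone would meet in about 1 group in 20. It found 3: ABCC4 in WT rat 23 (93.8 CPM, the others of WT rats 17 to 24 at 72.4 to 74.0 CPM), SLCO4C1 in KO mouse 8 (0.121, the other KO mice at 0.0778 to 0.0797) and SLCO4C1 in KO rat 26 (2.74 CPM, the other KO rats of 25 to 32 at 1.98 to 2.11 CPM). Both SLCO4C1 values rest on few reads, 202 and 88.

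The change with genotype differed between rat ranges 25 to 32 and 17 to 24 for SLC22A6 (-0.95), SLC22A8 (-0.69) and ABCC4 (-0.57), by the genotype by range term of edgeR, as given in the report. It differed between species for ABCC2 by limma (0.54, rat minus mouse), a test that made too many false calls on simulated data. With edgeR on the reads of both species this did not pass (adjusted p = 0.0725). Without WT rat 23 ABCC4 passed the test in rats 17 to 24, with a rise of 0.26 (adjusted p = 0.0154).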

How the results depend on the processing

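In the mouse the number of transporters called was 0, 1 after dropping values under 0.01, 1 with edgeR and 2 with DESeq2 on recovered reads, and 0 to 0 when each mouse was left out. The related genes called were 1, and 3, 4 and 6 under these settings and 0 to 1 with a mouse left out. Over all symbols, 751 of 17376 were called, and 1123 of 13133, 1198 of 13442 and 1518 of 13442 under these settings. With a mouse left out, 352 to 683 of 17376 were called. SLC22A6 changed sign without KO mouse 3 (0.05), WT mouse 1 (0.16) or WT mouse 4 (0.03), within -0.18 to 0.16 over the mice left out. In all rats 3 transporters were called, 5 with the number range as a covariate, 0 in rats 17 to 24 alone, 6 in rats 25 to 32 alone and 2 to 4 with a rat left out; DESeq2, its size factors, limma-voom and no filter stayed within 1.5 times. Related genes called in rats 17 to 24 alone were 4. Calls over all genes moved too: 3180 of 11584 in all rats and 4443 of 11584 with the number range as a covariate. They were 843 of 11610 in rats 17 to 24 alone, 5100 of 11633 in rats 25 to 32 alone and 2536 to 3478 with a rat left out. ABCC4 (0.16) and SLCO4C1 (0.16) changed sign in rats 17 to 24 alone. In rats 17 to 24 the count was 1 with DESeq2 and 0 to 2 with a rat left out (1 without WT rat 17, 2 without WT rat 23). There 1224 of 11610 genes were called with DESeq2 and 504 to 930 with a rat left out. In rats 25 to 32 the count was 4 to 6 with a rat left out, and for the genotype by range term 2 to 3, where SLC22A2 changed sign without WT rat 21 (-0.015, within -0.015 to 0.31). Over all genes these were 3946 to 5242 and 1019 to 2389. Between ranges, KO rats gave 1 to 3 with a rat left out (3 without KO rat 18 or WT rat 19), beside 4261 to 5846 of all genes. SLCO4C1 in WT rats changed sign without WT rats 19 (-0.05), 25 (-0.078) or 27 (-0.0067), within -0.078 to 0.22. For the species difference the count was 1, 0 with pseudocount 0.1 or edgeR on the reads, 2 with rats 25 to 32 alone and 0 to 2 with an animal left out. Of all 11216 symbols this difference passed for 355, for 252 with pseudocount 0.1 and for 276 with edgeR. It passed for 2812 with rats 25 to 32 alone and for 181 to 478 with an animal left out. SLC22A8 (0.16) and ABCG2 (0.016) changed sign there with rats 17 to 24 alone, and ABCG2 without KO mouse 6 (0.0027, within -0.044 to 0.0027). The cause of these changes was not tested. Of all other gene values under the alternatives, 1265 kept direction and side of the threshold, 62 lost it and 28 gained it.

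No paired analysis was run. The sample labels used here do not name the litter of an animal, so which KO and WT animals were littermates is not known. Of the transporters, SLCO4C1 rests on the fewest reads in the rat, 49 to 145 per library. What the number ranges of the rats stand for is not given in the labels, and a difference between ranges cannot be told apart from it.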
